A study of Homo sapiens with 12 samples.

Results

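The mitochondrial carrier genes of the SLC25 family were followed across 12 polyA RNA-seq libraries from 3 kidney cell lines. Members were all genes whose symbol in the deposited expression table is SLC25A and a number, which gave 48 genes among 19156 distinct symbols. SLC25A6 stands on a second line that is 0 in every library, so the line with values was used. The family members UCP1, UCP2, UCP3, MTCH1 and MTCH2 carry other names and are outside this choice.

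The study asked about Hippo signalling in a rare kidney carcinoma and lowered negative regulators of that pathway with small interfering RNAs (siRNAs). A704 and CAKI-1 are labelled as cancer and HK2, immortalised kidney epithelium, as normal. Each line received, at 25 nM, an siRNA to PTPN14 called PTPN14-1, another called PTPN14-2, a LATS siRNA or a non-targeting control siRNA, for 48 h before RNA was collected. RNA integrity numbers were 10 apart from the A704 control library, at 9.6. Each reagent gave 1 library in each line, so every siRNA has 3 libraries and every line has 4. All libraries were transfected with the same lipid reagent, and no untransfected library was used. Lines were grown in their own media (RPMI for A704, McCoy for CAKI-1, keratinocyte medium for HK2), so line and medium cannot be told apart. No combination of line and siRNA was repeated. Apart from the interaction test, the p-values below therefore rest on the variation that line and siRNA leave over among the 12 libraries. That variation mixes responses particular to a line with noise, which may be technical, and does not cover repeats of the experiment. The numbers 1 and 2 of the PTPN14 siRNAs are exchanged between the titles and the descriptions of the samples, and those of the titles are used.

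SLC25 proteins sit in the mitochondrial inner membrane, with a few exceptions on peroxisomes or the outer membrane, and move nucleotides, phosphate, carboxylates, amino acids, cofactors and metal ions between cytosol and matrix. They are encoded in the nucleus and share a repeated fold with membrane-spanning helices that alternately opens to either side. In kidney epithelium, a tissue with high oxidative demand, they link the respiratory chain to glycolysis, fatty acid oxidation, amino acid breakdown and iron use.

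Levels are in FPKM, fragments scaled by transcript length and by library size, so genes can be ranked within a library. Tests ran on log2(FPKM + 1), a scale on which the differences of low genes are understated, with limma over 12276 genes above FPKM 1 in at least 3 libraries. A gene passed when its p-value, adjusted over all of those genes, was under 0.05. Of the 48 carriers, 38 were tested and 10 were too low. The filter let through SLC25A27 and SLC25A42 by their level in A704 alone and SLC25A53 by its level in HK2 alone, so their line differences were partly set by it. Across the 12 libraries the effective depth estimated from the lowest values was 16850000 to 23350000 reads, and 10862 to 11082 genes lay above FPKM 1. PTPN14 stood at 21.4 to 28.7% of the same line's control with PTPN14-1, at 31.2 to 37.5% with PTPN14-2 and at 84.6 to 113% with LATS siRNA. It fell by log2 1.84 with PTPN14-1 and by 1.40 with PTPN14-2. The LATS siRNA lowered LATS1 by log2 1.36, while LATS2 differed by 0.12 and did not pass. LATS2 was higher than control with PTPN14-1 by log2 0.47 (limma adjusted p = 0.00903, up to 0.0588 with 1 library left out). With PTPN14-2 it differed by 0.07 and did not pass.

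SLC25A5, an exchanger of cytosolic ADP for matrix ATP, was the most abundant carrier in every library. It had 181, 183, 136 and 167 FPKM in A704, 280.2, 245, 242 and 241 FPKM in CAKI-1, and 326, 280.2, 293 and 301 FPKM in HK2, in the order PTPN14-1, PTPN14-2, LATS, control, which is the order for all values per library that follow. Every A704 library lay below every other, while the highest CAKI-1 library (280.20) and the lowest HK2 library (280.19) met. SLC25A6, another ADP/ATP exchanger, had 102, 110.1, 101 and 122 FPKM in A704, 88.1, 68.7, 107 and 77.8 FPKM in CAKI-1, and 95.9, 93.1, 95.6 and 104 FPKM in HK2, and the lines overlapped. SLC25A39, which takes glutathione into the matrix, had 76.5, 84.8, 72.1 and 73.2 FPKM in A704, 58.9, 53.1, 69.4 and 57.4 FPKM in CAKI-1, and 90.0, 93.3, 97.1 and 95.0 FPKM in HK2. SLC25A3, the phosphate carrier, had 75.1, 84.1, 65.1 and 74.9 FPKM in A704, 52.1, 57.0, 55.2 and 47.9 FPKM in CAKI-1, and 57.0, 57.8, 61.2 and 61.1 FPKM in HK2. For SLC25A39 the HK2 libraries were the highest and the CAKI-1 libraries the lowest, whereas for SLC25A3 the A704 libraries were the highest and the CAKI-1 libraries lay just under those of HK2. SLC25A13, the citrin that exchanges aspartate for glutamate, had 29.5, 32.1, 31.4 and 32.2 FPKM in A704, 27.8, 30.3, 32.1 and 28.2 FPKM in CAKI-1, and 34.5, 40.6, 40.6 and 39.1 FPKM in HK2, again highest in HK2. In bulk libraries fewer cells of a type and less RNA per cell cannot be told apart. In all, 9 pseudogene copies of SLC25A5 and 6 of SLC25A6 carry their names in GENCODE v29, so reads of these genes are uncertain to the extent that the authors' counting shared them. The same limit holds for every 1 of the 14 members with such copies, among them SLC25A1 with 5 and SLC25A3, SLC25A24 and SLC25A39 with 2 each. Exons of other genes overlap 6 members on the same strand, such as SNORA53 in SLC25A3, and 19 on the opposite strand, and not all are named below.

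By their mean over the 12 libraries, 21 members averaged over FPKM 10, 14 averaged 1 to 10 and 13 averaged under 1. A total of 32 members were above 1 in all 12 libraries. The 10 that were not tested were SLC25A18, SLC25A45, SLC25A21, SLC25A34, SLC25A41, SLC25A2, SLC25A47, SLC25A31, SLC25A52 and SLC25A48. Of these, SLC25A34 passed FPKM 1 in 1 library, at 1.06 in A704 with PTPN14-1, and the other 9 in none. SLC25A31, the ADP/ATP carrier of the testis, reached at most 0.06 FPKM, and SLC25A2, the second ornithine carrier, at most 0.11. SLC25A34 ran from 0.43 to 1.06 FPKM in A704, 0.09 to 0.24 in CAKI-1 and 0.02 to 0.06 in HK2, without overlap, at levels where few reads stand behind a value. With no filter on low values 37 members passed for A704 against HK2, 31 for CAKI-1 against HK2 and 31 for A704 against CAKI-1. Over all genes 12345, 11471 and 11841 passed in that order. The number of genes tested without the filter, which exceeds 12276, is not given here. No shares can therefore be set side by side, and nothing is read from these counts. Over whole lines the summed FPKM of the family ran from 757.91 to 857.76 in A704, 807.79 to 867.05 in CAKI-1 and 925.35 to 976.02 in HK2. SLC25A5 alone made up 20.5 ± 1.93% in A704, 30.1 ± 1.96% in CAKI-1, against 31.6 ± 1.85% in HK2 of that sum (SD, n = 4 libraries each).

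**Figure D1:**
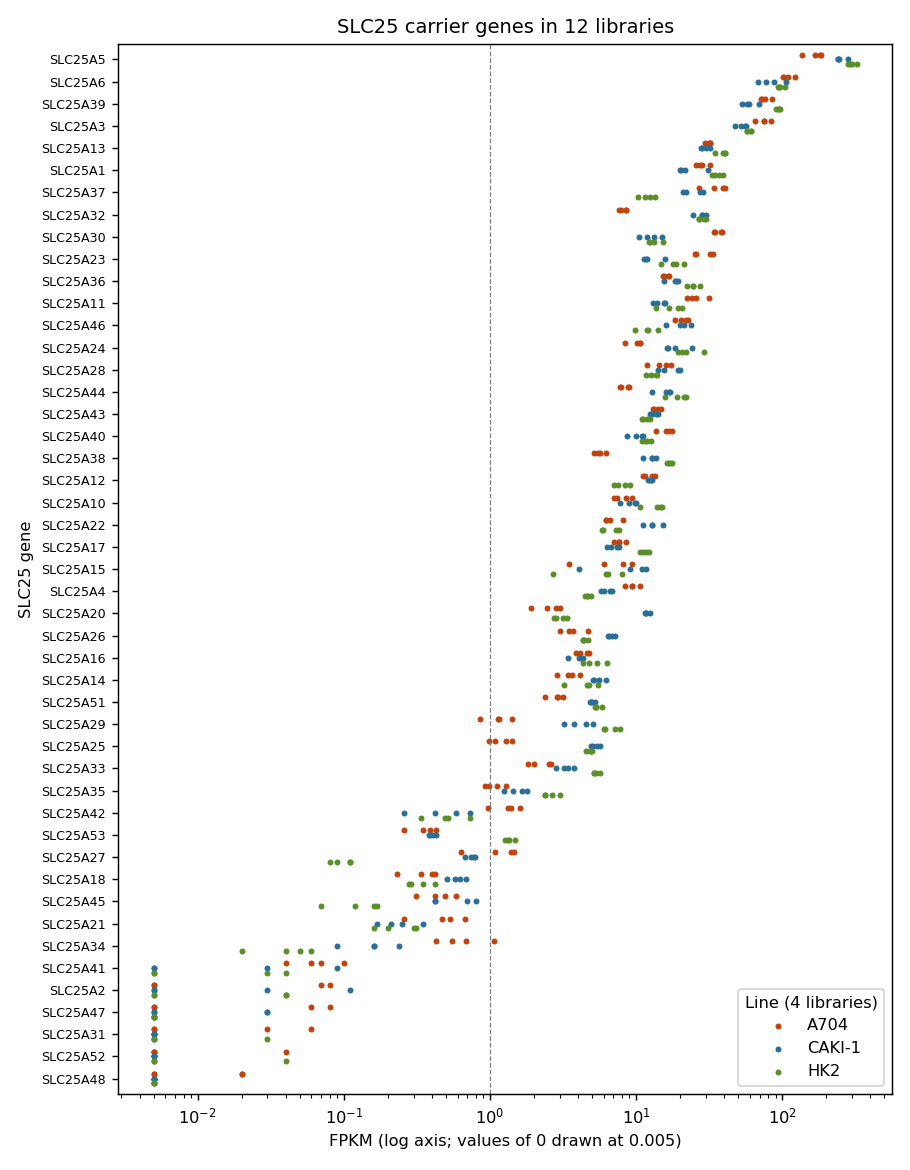
FPKM of 47 of the 48 SLC25 genes on a log axis, 1 point per library, coloured by line (A704, CAKI-1, HK2), with genes ordered by mean; values of 0 are drawn at 0.005. SLC25A5 lies at 136 to 326 FPKM, and the 10 genes left untested sit at or left of FPKM 1, apart from 1 library of SLC25A34.

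The ornithine carrier SLC25A15 had the largest siRNA difference of any member, with PTPN14-1. It brings ornithine into the matrix for the urea cycle and ornithine breakdown, and its loss causes a human urea cycle disorder. The gene lies at chr13:40789412-40810111, plus strand (GENCODE v29, GRCh38). In A704 it had 3.47 FPKM with PTPN14-1, 8.12 with PTPN14-2, 5.99 with LATS siRNA and 9.39 with control siRNA. In CAKI-1 it had 4.04 FPKM with PTPN14-1, 11 with PTPN14-2, 9.14 with LATS siRNA and 11.7 with control siRNA. In HK2 it had 2.71 FPKM with PTPN14-1, 6.44 with PTPN14-2, 6.19 with LATS siRNA and 8.07 with control siRNA. The 3 PTPN14-1 libraries were the lowest of their line each time, and as a group they lay below all 9 others. Relative to the control of the same line, SLC25A15 stood at 37.0% (A704), 34.4% (CAKI-1) and 33.6% (HK2). The log2 difference was -1.28 (SE 0.088, adjusted p = 9.69e-06). Against PTPN14-2, which was aimed at the same transcript, SLC25A15 fell to 42.7% (A704), 36.7% (CAKI-1) and 42.1% (HK2), a log2 difference of -1.09 (SE 0.088, adjusted p = 2.41e-05). With PTPN14-2 the difference from control was -0.19 (SE 0.088, adjusted p = 0.345) and did not pass. Its own target, PTPN14, also had lower levels under PTPN14-1, relative to PTPN14-2 by log2 0.44 (adjusted p = 0.0213, and up to 0.0975 without the A704 PTPN14-1, A704 PTPN14-2 or HK2 PTPN14-2 library), and the part of this in the SLC25A15 difference was not tested. Both calls held when any 1 of the 12 libraries was left out. Without the line as a block no siRNA difference of any member passed, this one included. When both PTPN14 siRNAs were taken as 1 target, the SLC25A15 difference was -0.73 (adjusted p = 0.421). The gene has 5 pseudogene copies by name, with the same limit as for SLC25A5.

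SLC25A15 was also the tested member with the largest share of variation between siRNAs. Over the 12 libraries siRNA took 81.9% of its sum of squares and line 16.4%. For the 38 tested members the median was 6.29% for siRNA and 88.1% for line, beside 4.02% and 91.8% over all 12276 genes. Of those genes 20 (0.163%), SLC25A15 included, had an siRNA share at or above that of SLC25A15. The next members were SLC25A16, a carrier linked to coenzyme A, at 36.4% and the iron carrier SLC25A28 at 30.9%, and neither passed in any siRNA comparison. Line took over 50% in 34 of 38 members (89.5%), beside 92.6% of all genes.

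**Figure D2:**
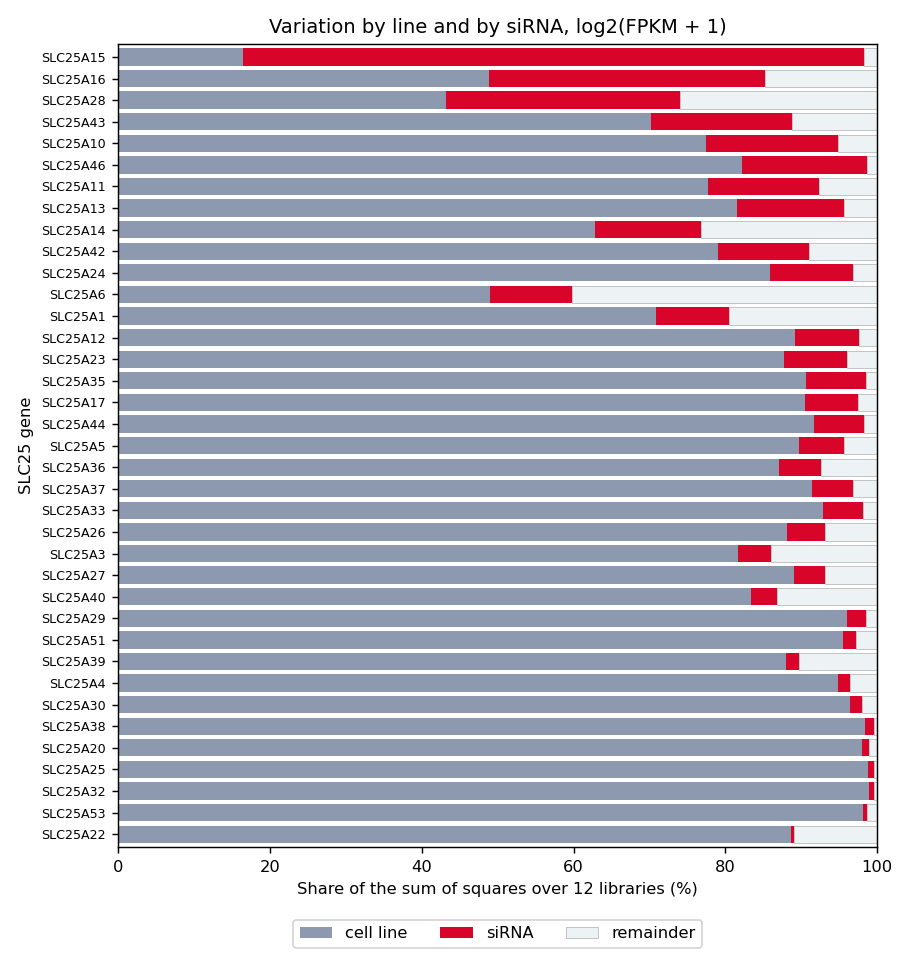
Share of the sum of squares of log2(FPKM + 1) over 12 libraries that goes to cell line, siRNA and the remainder, in percent, for 37 of the 38 tested SLC25 genes. SLC25A15 at the top is the bar in which siRNA (81.9%) exceeds line (16.4%).

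Promoter DNA of 2 members that passed an siRNA comparison is shown because PTPN14 and LATS act on YAP1, a coactivator that works through TEAD factors bound to DNA. The runs are RefSeq promoter windows (GRCh38.p14), at most 250 bases before the transcript start and shortened where an annotated exon of a protein-coding transcript reached in, 5′ to 3′ on the gene's strand. As GENCODE v29 draws the genes, 85 of the 136 bases shown for SLC25A15 and all 250 for SLC25A24 lie inside the gene. They lie outside annotated exons of protein-coding transcripts. The SLC25A24 window belongs to a RefSeq start within the gene, which in GENCODE v29 begins at 108200849 on the minus strand. Capitals mark the TEAD core GGAATG or its reverse complement CATTCC. SLC25A15 is at chr13:40789361-40789496, plus strand and SLC25A24 at chr1:108192836-108193085, minus strand.
SLC25A15: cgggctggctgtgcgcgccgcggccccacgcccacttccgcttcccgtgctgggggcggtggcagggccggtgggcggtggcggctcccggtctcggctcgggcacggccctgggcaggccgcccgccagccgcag
SLC25A24: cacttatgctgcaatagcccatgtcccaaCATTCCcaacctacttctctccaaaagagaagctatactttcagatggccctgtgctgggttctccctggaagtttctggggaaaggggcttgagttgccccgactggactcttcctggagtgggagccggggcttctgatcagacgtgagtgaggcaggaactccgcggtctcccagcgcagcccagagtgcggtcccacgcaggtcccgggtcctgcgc
The core stands once in the SLC25A24 window and not in that of SLC25A15. Over full windows of 250 bases it was found in 4175 of 35116 RefSeq promoters (11.89%). Among 50 promoters of the 40 members matched by symbol it was found in 3, those of SLC25A23, SLC25A24 and SLC25A28. These are matches of letters, not sites, and a window without the letters says nothing about binding elsewhere.

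Beside SLC25A15, the dicarboxylate carrier SLC25A10, which exchanges malate or succinate for phosphate, fell with PTPN14-1. Together they make 2 of 38 tested members past the threshold, 5.26%, both lower, beside 5.87% of all genes tested (2.39% higher and 3.47% lower). That share is near the background. The 38 members had a median log2 difference of -0.05, with 15 estimates above 0 and 23 below, and the median over all genes was 0.00. SLC25A10 (chr17:81712236-81721016, plus strand) had 7.07, 9.40, 7.44 and 8.48 FPKM in A704, 7.79, 8.91, 9.81 and 10.0 FPKM in CAKI-1, and 10.6, 14.5, 14.0 and 15.0 FPKM in HK2. In each line the PTPN14-1 library was the lowest, though across lines the PTPN14-1 and control groups overlapped. The log2 difference from control was -0.34 (SE 0.088, adjusted p = 0.0405), with levels at 83.4% (A704), 77.7% (CAKI-1) and 70.6% (HK2) of control. This call was lost in 7 of 12 fits that left out 1 library. Without a control library the adjusted p was 0.0885 (A704), 0.136 (CAKI-1) or 0.165 (HK2). Without a PTPN14-1 library it was 0.0785 (CAKI-1) or 0.166 (HK2). Without the HK2 PTPN14-2 library it was 0.0596 and without the HK2 LATS library 0.0505. An exon of AC139530.2 overlaps SLC25A10 on the same strand, and reads there cannot be told apart.

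Set against PTPN14-2, PTPN14-1 changed 4 of 38 members (10.5%), 1 higher and 3 lower, beside 11.7% of all genes tested (5.52% higher and 6.18% lower). SLC25A24, a calcium-regulated carrier that exchanges ATP-Mg for phosphate, was the 1 higher with PTPN14-1. It lies at chr1:108134036-108200849, minus strand and had 10.6, 8.37, 10.2 and 10.6 FPKM in A704, 24.1, 16.4, 16.2 and 18.3 FPKM in CAKI-1, and 29.4, 19.5, 21.9 and 20.7 FPKM in HK2. In CAKI-1 and HK2 the PTPN14-1 library was the highest of its line, while in A704 it lay within the range of the other siRNAs. The log2 difference from PTPN14-2 was 0.47 (SE 0.097, adjusted p = 0.00909), with levels at 126% (A704), 147% (CAKI-1) and 150.5% (HK2) of those with PTPN14-2. It passed in all 12 fits without 1 library. Against control the difference was 0.29 (SE 0.097, adjusted p = 0.102) and did not pass. GENCODE v29 places exons of AL359258.2 and AL359258.3 on the opposite strand, and the strand setting of the counting is not given in the sources used here.

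SLC25A10 was lower under PTPN14-1 relative to PTPN14-2, by log2 0.32 (SE 0.088, adjusted p = 0.0330). That call was lost without the CAKI-1 control (0.0505), the CAKI-1 PTPN14-1 (0.0684), the HK2 PTPN14-2 (0.107), the HK2 PTPN14-1 (0.132) or the A704 PTPN14-2 library (0.154). SLC25A11, which exchanges oxoglutarate for malate in the malate-aspartate shuttle, lies at chr17:4937130-4940251, minus strand and had 22.2, 31.4, 24.0 and 25.7 FPKM in A704, 13.1, 13.9, 15.6 and 15.9 FPKM in CAKI-1, and 13.7, 19.4, 16.8 and 20.6 FPKM in HK2. PTPN14-1 gave the lowest value in every line, and the smallest gap to PTPN14-2 was in CAKI-1, at 94.2% of it. The log2 difference from PTPN14-2 was -0.34 (SE 0.10, adjusted p = 0.0465), and against control it was -0.34 (SE 0.10, adjusted p = 0.0687), short of the threshold. The call against PTPN14-2 held in 4 of 12 fits without 1 library. It was lost without the A704 PTPN14-1 (0.0834), PTPN14-2 (0.213) or LATS library (0.0579) and without the CAKI-1 PTPN14-1 (0.0592) or control library (0.0650). The same held without the HK2 PTPN14-1 (0.175), PTPN14-2 (0.139) or LATS library (0.0588). SLC25A11 overlaps exons of RNF167 on the opposite strand, with the limit given for SLC25A24.

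**Figure D3:**
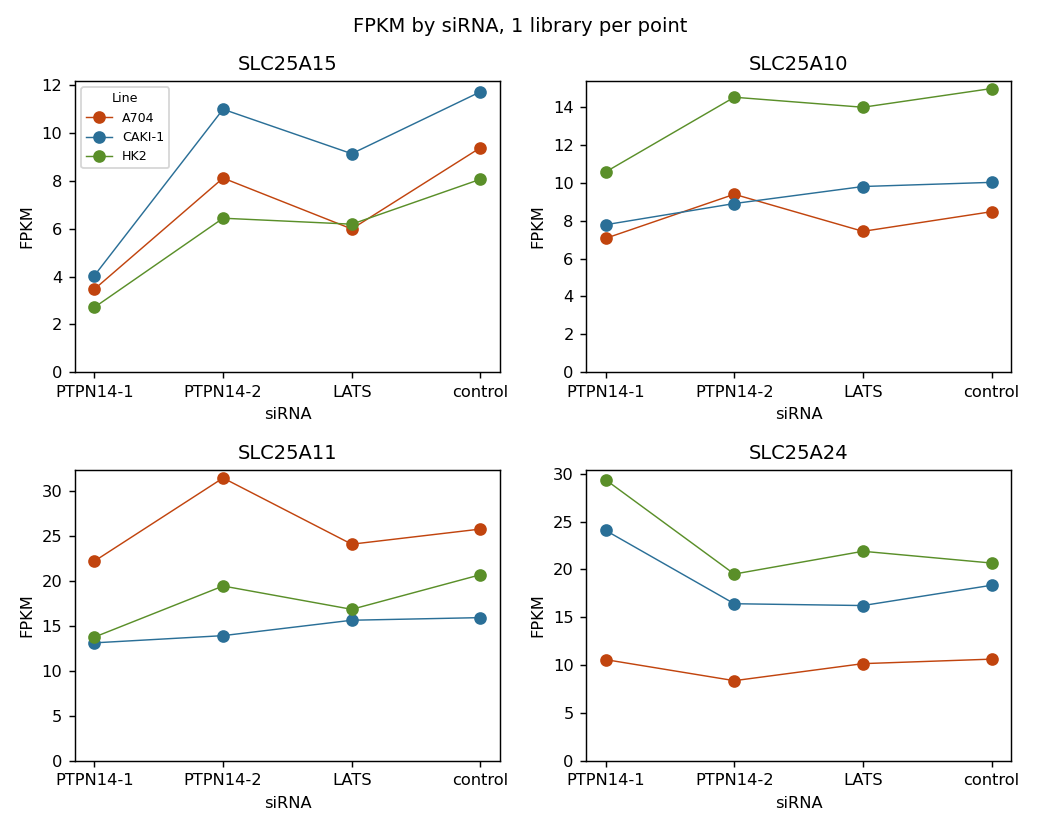
FPKM of SLC25A15, SLC25A10, SLC25A11 and SLC25A24 by siRNA (PTPN14-1, PTPN14-2, LATS, control), 1 library per point, with lines joining the libraries of A704, CAKI-1 and HK2. SLC25A15 with PTPN14-1 is at 2.71 to 4.04 FPKM, below every other library.

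PTPN14-2 and LATS siRNA called no member. With PTPN14-2 this was 0 of 38 by limma, beside 1.35% of all genes (0.448% higher and 0.904% lower), and 5 members had an unadjusted p under 0.05, beside 1837 genes (15%). With LATS siRNA it was again 0 of 38 by limma, beside 0.122% of all genes (0.0244% higher and 0.0978% lower), with 5 members under an unadjusted 0.05 and 1381 genes (11.2%). For PTPN14-1 against control the unadjusted counts were 7 members and 2801 genes (22.8%), and against PTPN14-2 they were 8 members and 3402 genes (27.7%). The median log2 difference over the 38 members was -0.02 with PTPN14-2 and -0.06 with LATS siRNA. All 3 siRNAs were set against the same 3 control libraries, so these comparisons are not independent. The lowest adjusted p with PTPN14-2 was that of SLC25A29, a carrier of basic amino acids, at log2 -0.27 (SE 0.10, adjusted p = 0.237). The mitoferrins, which bring iron into the matrix, had log2 differences of -0.28 (SLC25A37) and -0.28 (SLC25A28) with PTPN14-2, and were lower than control in all 3 lines without passing. With LATS siRNA, SLC25A15 was again the lowest estimate, at log2 -0.41 (SE 0.088, adjusted p = 0.144), with levels at 63.8% (A704), 77.9% (CAKI-1) and 76.7% (HK2) of control. SLC25A46, an outer membrane member that affects mitochondrial shape, was at -0.23 with LATS siRNA (adjusted p = 0.297) and at 0.20 with PTPN14-1 (adjusted p = 0.120).

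The direction of single lines was counted as a description. Neither that count nor the one of differences over 0.5 was made over all genes, so no family trend is read from them. With PTPN14-1, 4 members were above control in all 3 lines, 8 below and 26 mixed. PTPN14-2 gave 9 above, 8 below and 21 mixed, and LATS siRNA 5 above, 14 below and 19 mixed. A log2 difference over 0.5 in size was reached by 1 member with PTPN14-1, SLC25A15, and by none with PTPN14-2 or LATS siRNA. Whether the changes differ between lines was tested as an interaction, with a spread that rests on the PTPN14 pairs alone. Each pair holds PTPN14-1 and PTPN14-2 in the same line, so differences between these siRNAs were counted as noise. They differed in 11.7% of all genes, and for SLC25A15 by log2 -1.09. No member passed by limma for PTPN14 or for LATS, beside 0% of all genes in both. No member had an unadjusted p under 0.05, beside 106 and 112 genes. With noise counted this way, the test could not decide whether the changes differ between lines, and nothing is read from it.

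**Figure D4:**
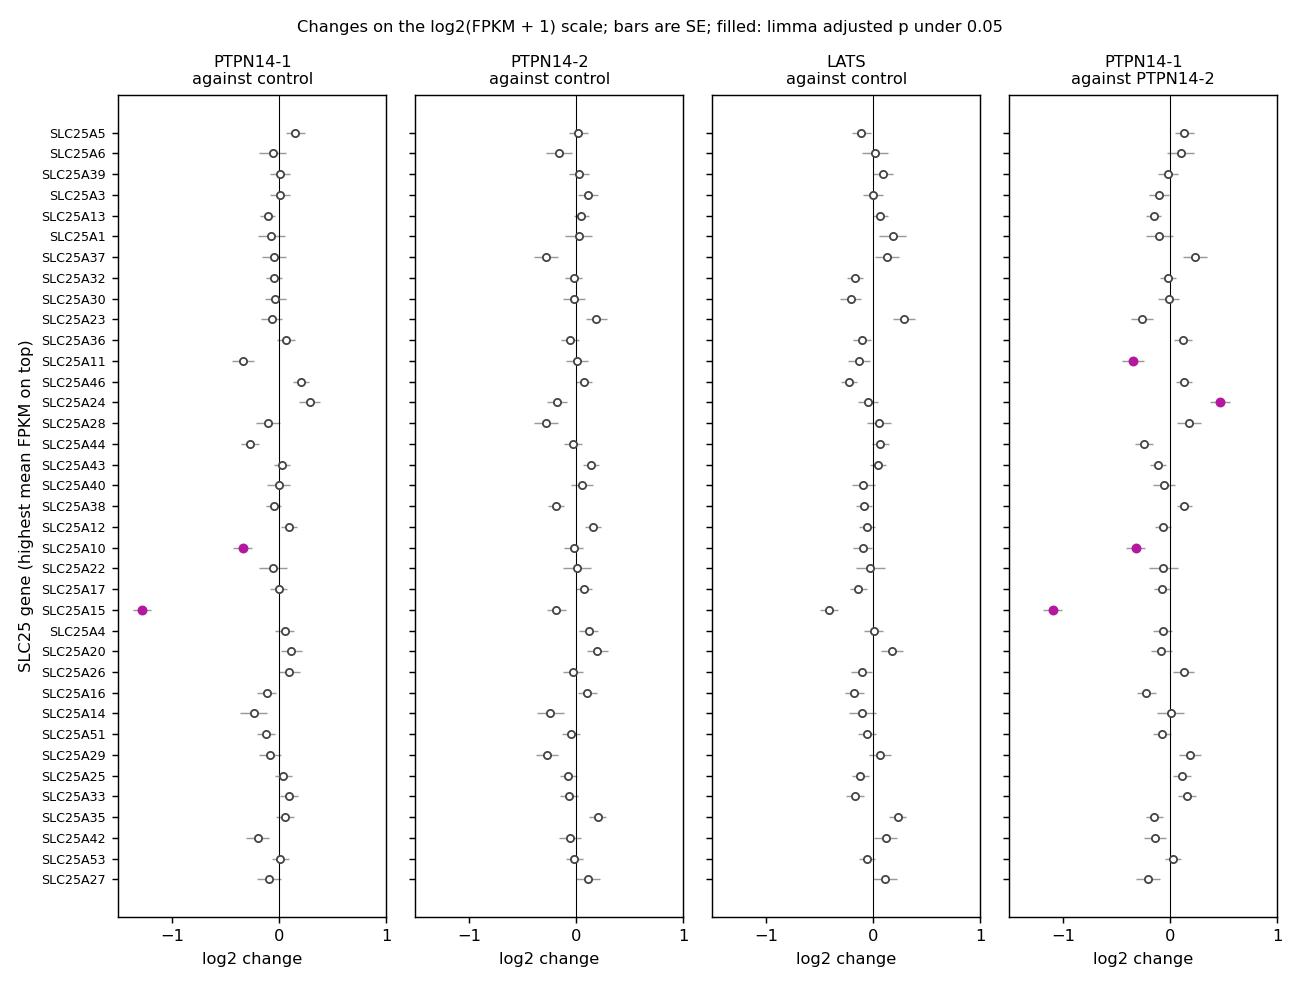
Log2 differences of 37 of the 38 tested SLC25 genes in 4 siRNA comparisons, ordered by mean FPKM; bars are standard errors and filled points passed limma at an adjusted p under 0.05. Filled points are SLC25A15 and SLC25A10 for PTPN14-1 against control, and SLC25A15, SLC25A10, SLC25A11 and SLC25A24 for PTPN14-1 against PTPN14-2.

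Most of the family's variation lay between lines. A704 differed from HK2 in 34 of 38 members (89.5%), 13 higher and 21 lower, beside 84.6% of all genes (40.6% higher and 44.0% lower). CAKI-1 differed from HK2 in 30 members (78.9%), 13 higher and 17 lower, beside 81.7% of all genes (40.4% higher and 41.3% lower). A704 differed from CAKI-1 in 28 members (73.7%), 12 higher and 16 lower, beside 81.1% of all genes (39.3% higher and 41.8% lower). These shares lie close to the background, so what follows describes which carriers differ and by how much. The median ratio of the highest to the lowest line mean was 1.8, with 16 members over 2 and 7 over 3, and was not taken over all genes. The libraries of A704 and HK2 did not overlap for 29 members (76.3%), beside 76.1% of all genes. For CAKI-1 and HK2 this was so for 22 members (57.9%), beside 69.8% of all genes, and for A704 and CAKI-1 also for 22, beside 68.8%. Of 92 line calls, 81 held in every fit without 1 library. Calls were lost without at least 1 library for SLC25A1, SLC25A14, SLC25A15, SLC25A16 and SLC25A26 between A704 and HK2, with adjusted p up to 0.159 (SLC25A15 without the HK2 PTPN14-2 library). Between CAKI-1 and HK2 they were lost for 4 members, SLC25A11, SLC25A14 and SLC25A43 among them, up to 0.259 (SLC25A14 without the HK2 PTPN14-2 library). Between A704 and CAKI-1 they were lost for SLC25A1 and SLC25A27, up to 0.118 (SLC25A1 without the A704 PTPN14-2 library). The filter kept SLC25A27 and SLC25A42 out of 3 of the 12 fits. Line levels below are means ± SD over 4 libraries that differ by siRNA and come from 1 line, not from separate donors.

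**Figure D5:**
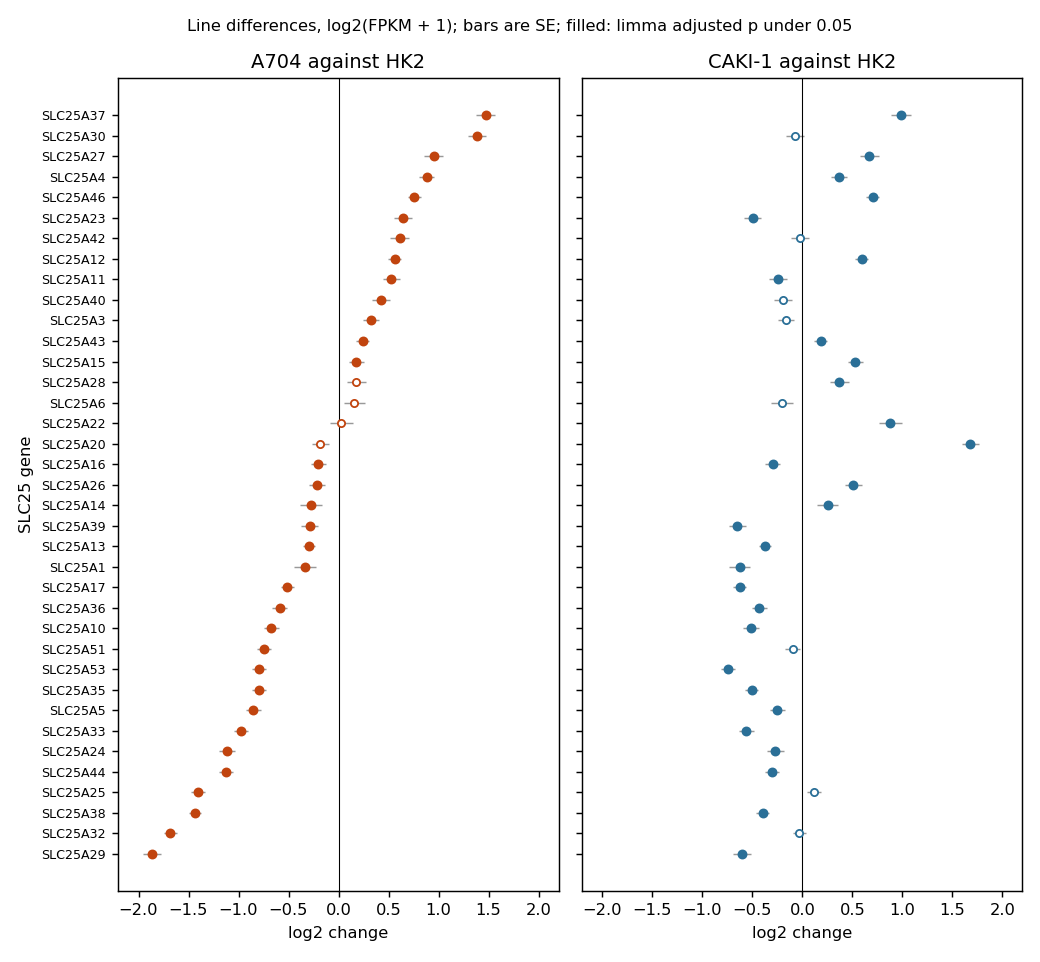
Log2 differences of 37 of the 38 tested SLC25 genes for A704 and for CAKI-1, each against HK2; bars are standard errors and filled points passed limma at an adjusted p under 0.05. SLC25A37 is the highest and SLC25A29 the lowest in A704, and SLC25A20 is the highest in CAKI-1.

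Among the ADP/ATP exchangers the mix differed between lines. SLC25A5 averaged 167 ± 21.9 FPKM in A704, 252 ± 18.8 in CAKI-1, against 300.2 ± 19.5 in HK2, lower in A704 than in HK2 by log2 0.85 (adjusted p = 1.79e-07). SLC25A4, the muscle-type exchanger, ran the other way at 9.47 ± 0.933 FPKM in A704, 6.31 ± 0.502 in CAKI-1, against 4.67 ± 0.184 in HK2, higher in A704 by log2 0.88 (adjusted p = 1.09e-07). SLC25A6 averaged 109 ± 9.66 FPKM in A704, 85.3 ± 16.2 in CAKI-1, against 97.2 ± 4.75 in HK2 and did not pass against HK2 in either line. Of the sum of these 3, SLC25A5 held 58.4 ± 3.31% in A704, 73.4 ± 3.59% in CAKI-1, against 74.6 ± 1.25% in HK2, and SLC25A6 held 38.3 ± 3.09% in A704, 24.7 ± 3.71% in CAKI-1, against 24.2 ± 1.24% in HK2. A704 had the smallest part of SLC25A5 and the largest of SLC25A6, without overlap in the libraries of A704 and the other lines.

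The calcium-regulated ATP-Mg and phosphate carriers were set differently again. SLC25A23 had 25.4, 32.1, 33.4 and 25.6 FPKM in A704, 11.8, 11.6, 15.7 and 11.4 FPKM in CAKI-1, and 14.9, 21.1, 18.9 and 18.0 FPKM in HK2, and every A704 library was above every other. The difference of A704 from CAKI-1 was log2 1.14 (SE 0.088, adjusted p = 4.16e-08). SLC25A25 had 1.41, 1.09, 0.99 and 1.29 FPKM in A704, 5.65, 4.94, 5.10 and 5.40 FPKM in CAKI-1, and 4.81, 4.96, 4.53 and 4.88 FPKM in HK2, with all A704 libraries at the bottom and a difference of A704 from CAKI-1 of log2 -1.52 (SE 0.069, adjusted p = 2.31e-10). SLC25A24 averaged 9.93 ± 1.06 FPKM in A704, 18.8 ± 3.67 in CAKI-1, against 22.9 ± 4.44 in HK2, also lowest in A704. SLC25A23 made up 72.1 ± 4.73% in A704, 34.6 ± 5.87% in CAKI-1, against 39.9 ± 6.77% in HK2 of the sum of these 3 genes. SLC25A3, the main route of phosphate into the matrix, was higher in A704 than in HK2 by log2 0.33 (adjusted p = 0.00175).

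Of the carboxylate carriers, SLC25A1 exports citrate for fatty acid synthesis and had 25.6, 32.1, 28.2 and 27.4 FPKM in A704, 21.8, 20.2, 30.9 and 20.1 FPKM in CAKI-1, and 33.0, 35.0, 36.9 and 39.1 FPKM in HK2. Every CAKI-1 library lay below every HK2 library, with a log2 difference of -0.63 (SE 0.11, adjusted p = 1.12e-04). SLC25A11 was highest in A704, with a difference from CAKI-1 of log2 0.77 (SE 0.089, adjusted p = 2.54e-06). SLC25A10 was highest in HK2, with 8.10 ± 1.05 FPKM in A704, 9.13 ± 1.02 in CAKI-1, against 13.5 ± 2.00 in HK2.

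In the aspartate and glutamate carriers, SLC25A12 (aralar), the isoform of brain and muscle, averaged 12.3 ± 1.10 FPKM in A704, 12.6 ± 0.382 in CAKI-1, against 8 ± 0.888 in HK2, and both cancer lines were above HK2 without overlap. SLC25A13 (citrin) averaged 31.3 ± 1.26 FPKM in A704, 29.6 ± 1.98 in CAKI-1, against 38.7 ± 2.88 in HK2. Of the 2 together, SLC25A12 made up 28.2 ± 2.15% in A704, 29.8 ± 1.81% in CAKI-1, against 17.2 ± 2.14% in HK2. SLC25A22, which carries glutamate with a proton, had 8.08, 6.59, 6.27 and 6.22 FPKM in A704, 11.2, 12.9, 15.4 and 12.8 FPKM in CAKI-1, and 5.92, 7.26, 5.83 and 7.62 FPKM in HK2. It was higher in CAKI-1 than in HK2 by log2 0.88 (SE 0.11, adjusted p = 8.89e-06), and A704 overlapped HK2.

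SLC25A29, which carries arginine, lysine and other basic amino acids, showed the largest fall of A704 against HK2 among the members, on the log2(FPKM + 1) scale. It had 1.41, 0.86, 1.13 and 1.16 FPKM in A704, 3.79, 3.19, 5.04 and 4.52 FPKM in CAKI-1, and 6.07, 6.13, 7.73 and 7.18 FPKM in HK2. All A704 libraries were below all CAKI-1 libraries, and these were below all HK2 libraries. The A704 mean was 0.168 of the HK2 mean, a log2 difference of -1.86 (SE 0.089, adjusted p = 2.50e-10). An exon of AL157871.6 overlaps it on the same strand and one of AL157871.1 on the other.

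SLC25A20 exchanges acylcarnitine for carnitine and so feeds fatty acids to oxidation. Its ratio of CAKI-1 to HK2 means was 3.92, beside 7.64 for SLC25A27, whose levels there were under FPKM 1. On the log2(FPKM + 1) scale SLC25A20 had the highest difference of CAKI-1 from HK2 among the members. It had 2.83, 3.03, 2.47 and 1.92 FPKM in A704, 11.5, 11.7, 12.5 and 11.7 FPKM in CAKI-1, and 2.75, 3.16, 3.36 and 2.83 FPKM in HK2. The CAKI-1 libraries lay between 11.5 and 12.5 FPKM, and no other library exceeded 3.36. The log2 difference of CAKI-1 from HK2 was 1.68 (SE 0.086, adjusted p = 7.10e-10), and of A704 from CAKI-1 -1.86 (SE 0.086, adjusted p = 2.54e-10). A704 and HK2 did not differ past the threshold, at -0.18 (SE 0.086, adjusted p = 0.0606).

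SLC25A38, which provides glycine for haem synthesis, had 5.66, 5.15, 5.51 and 6.18 FPKM in A704, 12.8, 11.2, 12.8 and 13.7 FPKM in CAKI-1, and 17.6, 16.2, 16.7 and 17.1 FPKM in HK2. Every A704 library lay below every HK2 library, with a log2 difference of -1.44 (SE 0.062, adjusted p = 8.87e-11). SLC25A44, a carrier of branched-chain amino acids, averaged 8.36 ± 0.636 FPKM in A704, 15.6 ± 1.92 in CAKI-1, against 19.5 ± 2.77 in HK2, in the same order of lines. For the glutathione carriers, SLC25A39 was lower in CAKI-1 than in HK2 by log2 0.65 (SE 0.083, adjusted p = 6.59e-06). Its relative SLC25A40 was highest in A704, with 16.1 ± 1.69 FPKM in A704, 10.2 ± 1.19 in CAKI-1, against 11.8 ± 0.651 in HK2. SLC25A39 made up 82.6 ± 1.87% in A704, 85.2 ± 2.66% in CAKI-1, against 88.8 ± 0.840% in HK2 of the 2 together.

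Among the cofactor and nucleotide carriers, 8 of 9 tested were lower in A704 than in HK2 and 1 was higher, beside 44.0% of all genes lower and 40.6% higher, and 2 of those calls (SLC25A16 and SLC25A26) depended on single libraries. SLC25A32, the folate carrier of the inner membrane, had 8.56, 7.87, 7.61 and 8.54 FPKM in A704, 28.3, 29.9, 24.5 and 28.2 FPKM in CAKI-1, and 27.1, 29.1, 26.9 and 30.2 FPKM in HK2. The 4 A704 libraries sat at 7.61 to 8.56 FPKM and the other 8 at 24.5 to 30.2. A704 differed from HK2 by log2 -1.68 (SE 0.065, adjusted p = 2.75e-11) and from CAKI-1 by -1.65 (SE 0.065, adjusted p = 5.21e-11). SLC25A32 overlaps AC012213.5 on its own strand and DCAF13 on the other, so those reads are uncertain. SLC25A33 and SLC25A36 both carry pyrimidine nucleotides. SLC25A33 averaged 2.23 ± 0.386 FPKM in A704, 3.30 ± 0.375 in CAKI-1, against 5.33 ± 0.246 in HK2. SLC25A36 averaged 16.1 ± 0.700 FPKM in A704, 18.0 ± 1.69 in CAKI-1, against 24.6 ± 2.19 in HK2. SLC25A51, the carrier of NAD, averaged 2.84 ± 0.320 FPKM in A704, 4.99 ± 0.159 in CAKI-1, against 5.42 ± 0.269 in HK2. In all of these A704 had the lowest mean. SLC25A17, a peroxisomal member, averaged 7.71 ± 0.598 FPKM in A704, 7.05 ± 0.636 in CAKI-1, against 11.4 ± 0.760 in HK2. SLC25A42, a coenzyme A carrier, was the 1 that was higher in A704, with 1.32 ± 0.266 FPKM in A704, 0.5 ± 0.204 in CAKI-1, against 0.520 ± 0.161 in HK2. Its log2 difference from HK2 was 0.61, partly set by the filter, which it passed by its level in A704 alone.

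The iron carrier SLC25A37 (mitoferrin-1) had 39.1, 27.1, 40.5 and 34.0 FPKM in A704, 20.9, 22.0, 27.3 and 28.9 FPKM in CAKI-1, and 12.5, 10.2, 13.6 and 11.5 FPKM in HK2. Every library of both cancer lines lay above every HK2 library. The log2 difference from HK2 was 1.47 (SE 0.095, adjusted p = 5.30e-09) in A704 and 0.99 (SE 0.095, adjusted p = 4.27e-07) in CAKI-1. SLC25A28 (mitoferrin-2) averaged 15.0 ± 2.38 FPKM in A704, 17.2 ± 2.95 in CAKI-1, against 13.0 ± 1.10 in HK2, and A704 overlapped both other lines. CAKI-1 did not overlap HK2, though its lowest library (14.02) and the highest of HK2 (14.01) lay side by side, and its log2 difference from HK2 was 0.37 (SE 0.098, adjusted p = 0.00332). SLC25A37 made up 70.1 ± 1.08% in A704, 59.0 ± 1.75% in CAKI-1, against 47.8 ± 3.53% in HK2 of both mitoferrins.

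Of the genes resembling uncoupling proteins, SLC25A30 had 34.9, 38.0, 34.3 and 38.5 FPKM in A704, 15.0, 13.3, 10.6 and 11.9 FPKM in CAKI-1, and 12.5, 13.4, 12.2 and 15.3 FPKM in HK2. A704 lay above the other lines in all libraries, by log2 1.39 (SE 0.087, adjusted p = 3.69e-09) against HK2 and 1.46 (SE 0.087, adjusted p = 3.27e-09) against CAKI-1. The genes SLC25A30-AS1 and TPT1-AS1 overlap it on the opposite strand. SLC25A27 had 0.63, 1.47, 1.40 and 1.09 FPKM in A704, 0.78, 0.74, 0.79 and 0.67 FPKM in CAKI-1, and 0.08, 0.11, 0.11 and 0.09 FPKM in HK2. Its A704 values were all above those of HK2, with a log2(FPKM + 1) difference of 0.95 (SE 0.097). The ratio of the A704 to the HK2 mean was 11.8, at levels near FPKM 1 or under. SLC25A27 passed the filter by its level in A704 alone, so this difference was partly set by the filter. SLC25A14 averaged 3.52 ± 0.517 FPKM in A704, 5.51 ± 0.559 in CAKI-1, against 4.52 ± 0.935 in HK2, and its differences of either cancer line from HK2 were lost without single libraries.

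Among members with less defined substrates, SLC25A53 had 0.35, 0.43, 0.26 and 0.39 FPKM in A704, 0.41, 0.38, 0.39 and 0.43 FPKM in CAKI-1, and 1.48, 1.26, 1.35 and 1.33 FPKM in HK2. It exceeded FPKM 1 in HK2 alone and passed the filter by that level. The log2 difference of CAKI-1 from HK2, -0.75 (SE 0.068), was thus partly set by the filter. SLC25A46 averaged 20.9 ± 1.83 FPKM in A704, 20.2 ± 3.20 in CAKI-1, against 11.99 ± 1.72 in HK2, and both cancer lines were above HK2. SLC25A35 averaged 1.07 ± 0.156 FPKM in A704, 1.54 ± 0.240 in CAKI-1, against 2.61 ± 0.303 in HK2. SLC25A43 averaged 13.9 ± 0.814 FPKM in A704, 13.3 ± 0.762 in CAKI-1, against 11.6 ± 0.658 in HK2 and had the smallest ratio of highest to lowest line mean among the 38, 1.2.

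Genes around the carriers were read in 8 lists. In the ornithine and arginine list, where SLC25A15 acts, 1 of 10 tested passed with PTPN14-1, beside 5.87% of all genes. This was ODC1, which turns ornithine into putrescine and fell by log2 0.65 (SE 0.11, adjusted p = 0.00566). It was also lower than with PTPN14-2, by log2 0.38 (adjusted p = 0.0384). The median of that list with PTPN14-1 was -0.06. OTC and ARG1, the urea cycle enzymes around ornithine, were not tested because they were too low. Of 15 tested genes for importing carrier proteins, 2 were lower with PTPN14-1 (TOMM70A by log2 0.32, adjusted p = 0.0366, and TIMM8A by 0.37, adjusted p = 0.0479) and none higher, beside 3.47% of all genes lower and 2.39% higher. TOMM70A is the outer membrane receptor for carriers, and it was also lower than with PTPN14-2 by log2 0.54. With PTPN14-2, 1 of the 15 was lower, beside 0.904% of all genes. This was TOMM5 by log2 0.72, which stood at 0.58 for PTPN14-1 against PTPN14-2. With 1 library left out, ODC1 against control and TOMM70A against PTPN14-2 passed in 12 of 12 fits. ODC1 against PTPN14-2 passed in 6, TOMM70A against control in 5, TIMM8A in 3, and TOMM5 in 8 against control and 10 between the PTPN14 siRNAs.

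Of 16 other inner membrane transporters, 1 was higher with PTPN14-1, the calcium uniporter MCU, by log2 0.27, beside 2.39% of all genes higher. None of the 16 passed with PTPN14-2, beside 1.35% of all genes. Against PTPN14-2, PTPN14-1 had 3 of the 16 lower, beside 6.18% of all genes. These were SFXN2 by log2 0.53, and the pyruvate carrier subunits MPC2 by 0.48 and MPC1 by 0.41. In the citrate and fatty acid list of 8, PTPN14-2 lowered ACLY, which splits the citrate that SLC25A1 exports, by log2 0.88 (adjusted p = 9.50e-04) and raised IDH1 by 0.41, 2 of 8 beside 1.35% of all genes. ACLY was 0.99 for PTPN14-1 against PTPN14-2. SLC25A1 itself stood at 0.02 with PTPN14-2 and did not pass. In the folate list 1 of 7 passed in 1 comparison, SHMT1 at -0.28 for PTPN14-1 against PTPN14-2, where 11.7% of all genes passed. Of 15 genes of mitochondrial content and biogenesis 1 passed in the same comparison, PPRC1 at 0.33. None of 4 malate-aspartate shuttle enzymes and none of the 3 tested family members with other names (5 listed) passed in any siRNA comparison. LATS siRNA called no gene in any of the 8 lists, beside 0.122% of all genes. With counts this small, nothing is read from these shares. With 1 library left out, the ACLY, SFXN2 and MPC2 calls passed in 12 of 12 fits, MPC1 in 9, PPRC1 in 8, MCU and IDH1 in 6 each and SHMT1 in 3.

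The epithelial kidney label was checked against marker genes. Of the 8 epithelial markers, KRT8, KRT18, PAX8 and CDH6 were above FPKM 1 in every library, and the rest differed by line. KRT8, KRT18 and CDH16 were highest in A704, and CDH16 ran from 56.4 to 80.2 FPKM in A704, 3.16 to 5.74 in CAKI-1 and 0.42 to 1.54 in HK2. PAX2 (9.81 to 14.3 FPKM) and CDH1 (16.04 to 21.41 FPKM) were found in A704 but were at most 0.01 and 0.17 FPKM in the other lines. Other markers were highest in HK2. EPCAM ran from 0.03 to 0.25 FPKM in A704, 0.31 to 0.51 in CAKI-1 and 24.7 to 33.0 in HK2. CDH6 ran from 3.18 to 4.65 FPKM in A704, 4.84 to 11.5 in CAKI-1 and 15.6 to 30.0 in HK2. PAX8 ran from 19.4 to 25.2 FPKM in A704, 37.1 to 54.5 in CAKI-1 and 70.6 to 85.3 in HK2. These markers move with line, and their part in the line differences of the carriers was not tested. None of the leukocyte, endothelial and adipocyte markers exceeded FPKM 1. The 7 fibroblast markers summed to 0.77 to 1.56 FPKM in A704, 1.19 to 2.57 in CAKI-1 and 54.6 to 83.5 in HK2, where LUM reached 74.4. COL1A2 and COL3A1 were at or near 0 in all lines. In HK2 the sum was mostly LUM (46.6 to 74.4 FPKM) and DCN (5.67 to 8.20 FPKM), which were at most 0.13 and 0.03 FPKM in the other lines. PDGFRB went the other way, at 0.62 to 1.72 FPKM in CAKI-1 and 0.01 to 0.03 in HK2. COL1A1 ran from 0.67 to 1.43 FPKM in A704, 0.42 to 0.74 in CAKI-1 and 0.93 to 1.49 in HK2, and PDGFRA reached at most 0.05. LUM and DCN thus move with line, beside every difference from HK2 above, and their part in those differences was not tested. No fibroblast marker passed in an siRNA comparison. Of the 8 epithelial markers, KRT18 (0.40), CDH16 (-0.53) and CDH6 (-0.61) passed for PTPN14-1 against PTPN14-2 (in 10, 10 and 3 of 12 fits without 1 library), 3 of 8 beside 11.7% of all genes, and the part of this in the carrier differences was not tested.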

How the data were processed

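Gene levels came from 1 table of FPKM values, which the authors deposited rounded to 2 decimals. Its header names no unit, so FPKM was inferred from the values. The labels' protocols describe polyA selection and a stranded library kit. The submitters' processing notes name STAR 2.4.0g1 and GRCh38.p1, and the sources used here do not give the counter, the annotation or the strand setting, so reads shared by overlapping genes or pseudogene copies may be split. Effective depth was the step at which most low values of single-exon genes became whole reads, 77.5 to 97.5% of values per library.

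From there, limma 3.58.1 (R 4.3.3, statmod 1.5.0) was run on log2(FPKM + 1) for 12276 genes above FPKM 1 in at least 3 libraries, with line and siRNA as terms, trend and robust moderation, 6 residual degrees of freedom and Benjamini-Hochberg adjustment. Code was tested on simulated data. Libraries were paired by cell line, since those of a line come from the same cells. Their deviations from the siRNA means correlated at 0.958 to 0.983. These deviations hold the whole difference between lines, so high values were set in advance and are no check of the pairing. Alternatives were a pseudocount of 0.1, no filter, FPKM above 5, quantile scaling, no moderation, no block, PTPN14 siRNAs as 1 target, and each library left out.

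Values per library are printed for members past an adjusted p of 0.05 in an siRNA comparison, the 5 highest by mean, and the 3 largest rises and falls per line comparison, and up to 4 genes are named per list. Some further members are given by line means, chosen by role after their values were seen. Members, lists and rules were chosen with earlier results of these data known. Gene positions and overlaps came from GENCODE v29, matched by symbol for all 48 members, and promoters from RefSeq. Values of 1 tested member and 1 promoter sequence are not reported here, though counts over the family include that member.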

Additional observations from a re-analysis of the deposited data

Results flagged for a closer look

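In each line the 4 libraries of each tested member were searched for 1 far from the other 3, by its gap to the nearest library over the whole range. Of 114 such sets, 2 were past Dixon's 95% limit, and chance passes about 1 in 20. The ATP-Mg carrier SLC25A23 had 15.67 FPKM in CAKI-1 with LATS siRNA, against 11.4 to 11.8 FPKM in the other CAKI-1 libraries (gap over range 0.880). The ADP/ATP exchanger SLC25A5 had 280.2 FPKM in CAKI-1 with PTPN14-1, against 241 to 245 FPKM in the other CAKI-1 libraries (0.874).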

How the results depend on the processing

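For PTPN14-1 against control, 2 members passed. The count was 1 with no filter on low values, 0 with the PTPN14 siRNAs as 1 target, and 1 to 4 without 1 library (4 without the A704 PTPN14-1 library, 1 without each library named for SLC25A10). For PTPN14-1 against PTPN14-2 the 4 became 2 with no filter, and 2 to 5 without 1 library (2 without the A704 PTPN14-2, CAKI-1 control, HK2 PTPN14-1 or HK2 PTPN14-2 library). Pairing by line mattered: with no replicate block both counts were 0. For PTPN14-2 and for LATS siRNA against control the count was 0 in every alternative run. SLC25A15 kept its calls except with no block and, against control, with 1 PTPN14 target. With no filter SLC25A10 had an adjusted p of 0.0750 against control and 0.0611 against PTPN14-2, and SLC25A11 had 0.0963 (0.0535 without moderation). No member called in a comparison changed sign. Members called without 1 library numbered 28 to 34 for A704 against HK2, 28 to 32 for CAKI-1 against HK2 and 26 to 29 for A704 against CAKI-1. Over all genes the calls were 10033 to 10430, 9604 to 10144 and 9491 to 9982 in that order. Over all genes, calls against control became 355 for PTPN14-1, 60 for PTPN14-2 and 3 for LATS siRNA with no filter, and 0 for each with no block. Without 1 library they ran from 202 to 833, 34 to 254 and 3 to 20 in that order, the lowest without the HK2 control (PTPN14-1) or the CAKI-1 control (PTPN14-2). The PTPN14 siRNAs differed in 744 (without the CAKI-1 PTPN14-2 library) to 1643 genes, and in 0 with no block. With 1 PTPN14 target 3 genes passed. The cause of these moves was not tested. With 1 library per line and siRNA the precision is limited, and levels near FPKM 1 are limited by depth.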
